A study of Mus musculus with 8 samples.

Results

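The genes described here are 37 chaperones and heat shock genes, chosen by name: the array probes whose gene name in the deposited scanner files is a listed member. They are 37 of the 18605 genes tested. The list holds the heat shock factor Hsf1, HSP70 and HSP110 proteins, their J protein and BAG partners, the small heat shock protein Hspb1, HSP90 proteins and their co-chaperones, the 8 subunits of the cytosolic chaperonin TRiC/CCT, and the mitochondrial chaperonin pair Hspd1 and Hspe1. Most of these proteins work in the cytosol, but Hspa9, Dnaja3, Trap1, Hspd1 and Hspe1 act in mitochondria. Every one of the 37 genes was well above background on all 8 arrays at the probe used for it.

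RNA of cells described as peritoneal macrophages was measured on 8 one-colour Agilent arrays, 4 from wild-type mice (wt) and 4 from mice lacking Card9 (Card9-/-). Card9 is the adaptor that passes signals from receptors for fungal cell walls to NF-kB. Both groups had the same handling: an intraperitoneal dose of 1 ml of 3% thioglycolate, which draws macrophages into the cavity, collection after 4 days, red cell lysis and 3 h of adhesion, and intraperitoneal zymosan, a yeast wall preparation, at 500 mg/kg, which acted for 4 h. No mice without zymosan enter these values, and its effect on the genes cannot be read from them. The labels give pellets of 4 or 5 mice per group without saying what each array holds, so the p-values here reflect the variation among arrays, which may be technical. The age and strain of the mice, and how Card9 was deleted, are not given in the sources used here.

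Chaperones bind unfolded or newly made proteins and help them reach their folded state. HSP70 proteins do so in cycles of ATP use that J proteins start and exchange factors end, HSP90 acts on nearly folded clients such as kinases and receptors, and TRiC encloses actin and tubulin. When unfolded protein accumulates, the factor Hsf1 binds heat shock elements, which are inverted repeats of GAA, and raises the inducible members of the list. In macrophages chaperones help cells withstand the heat, oxidants and protein load of inflammation.

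Values that touch all results come first. Between 47.8% and 56.5% of the spots of an array were well above background, and no probe was saturated. At 1 of its 2 probes Card9 itself gave signals of 4.75, 38.2, 1060 and 561 in the 4 libraries labelled wt, in order of replicate. In those labelled Card9-/- it gave 3.60, 11.9, 8.85 and 4.52. It was well above background there in 3 wt and 0 Card9-/- libraries, so the library labelled wt replicate 1 did not show the gene that its label implies. The other Card9 probe read 12.7, 20.2, 142 and 41.1 in wt and 3.7, 6.94, 4.05 and 18.5 in Card9-/-. It was well above background in 2 wt and 0 Card9-/- libraries, and Card9-/- replicate 4 lay above wt replicate 1. The 5 genes that passed an adjusted limma p of 0.05 all lie on the sex chromosomes: Eif2s3y, Ddx3y, Uty and an unnamed transcript of chromosome Y were higher in Card9-/- and Xist was lower, so that genotype and the sex of the mice cannot be told apart. Slide 1, scanned once, held every wt array together with Card9-/- replicate 4. The other Card9-/- arrays lay on slides 2 and 3, each with its own scan. Card9-/- replicates 1 and 3, on slide 2, had the lowest shares of spots well above background, 47.8% and 48.2%. The median level of 10 macrophage markers was 0.99, 0.69, 6.89 and 4.94 in wt and 2.25, 2.14, 2.47 and 2.08 in Card9-/-, in log2 units relative to each array's 75th percentile. That of 7 natural killer cell markers was -0.89, 0.23, -0.11 and 0.13 in wt and 3.13, 2.05, 0.80 and 1.60 in Card9-/-, with 7 of 7 higher. That of 9 T cell markers was 1.05, 1.15, 1.22 and 1.02 in wt and 3.05, 2.75, 1.87 and 2.68 in Card9-/-, with 9 of 9 higher. Of all 18605 genes tested, 8129 were higher. Adgre1, a defining macrophage marker, read 0.67 and 0.35 on wt arrays 1 and 2 but 7.72 and 5.92 on arrays 3 and 4. In bulk RNA, fewer cells of a type and less RNA per cell cannot be told apart, and the part of these cell mixtures in the chaperone values was not tested.

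The sequences upstream of start sites show where Hsf1 could bind. They are printed for Hspa1a, Hspa1b, Hspb1, Hsph1 and Hspe1, which all hold a match, and not for every inducible gene. Regions of 250 bases upstream of annotated start sites came from RefSeq (GRCm38.p6). They were present for 30 of the 37 genes; Hspa8, Hsf1, Hsp90aa1, Hsp90ab1, Hspa9, St13 and Cct4 had no entry. Capitals mark matches to GAANNTTC or TTCNNGAA, which are a pair of inverted units and may overlap each other, on either strand.

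Hspa1a (chr17:34972157-34972406, minus strand): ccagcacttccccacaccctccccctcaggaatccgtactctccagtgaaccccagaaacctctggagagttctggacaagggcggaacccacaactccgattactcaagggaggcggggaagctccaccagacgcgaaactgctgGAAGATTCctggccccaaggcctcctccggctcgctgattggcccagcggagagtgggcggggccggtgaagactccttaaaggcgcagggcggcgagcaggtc

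Hspa1b (chr17:34959239-34959488, minus strand): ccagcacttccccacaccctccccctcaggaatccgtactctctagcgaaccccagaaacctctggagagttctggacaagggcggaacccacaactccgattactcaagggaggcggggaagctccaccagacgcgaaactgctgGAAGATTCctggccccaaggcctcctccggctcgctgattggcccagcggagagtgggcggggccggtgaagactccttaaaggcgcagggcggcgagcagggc

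Hspb1 (chr5:135887669-135887918, plus strand): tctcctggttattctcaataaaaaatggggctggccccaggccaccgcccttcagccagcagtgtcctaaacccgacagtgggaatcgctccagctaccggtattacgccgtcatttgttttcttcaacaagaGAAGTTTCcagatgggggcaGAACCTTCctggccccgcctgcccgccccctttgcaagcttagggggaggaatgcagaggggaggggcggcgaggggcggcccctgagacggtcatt

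Hsph1 (chr5:149636316-149636565, minus strand): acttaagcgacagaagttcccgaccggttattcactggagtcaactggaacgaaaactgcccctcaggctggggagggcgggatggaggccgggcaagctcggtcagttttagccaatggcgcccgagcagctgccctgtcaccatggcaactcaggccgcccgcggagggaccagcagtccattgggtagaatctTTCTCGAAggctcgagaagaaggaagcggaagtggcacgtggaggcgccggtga

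Hspe1 (chr1:55087898-55088147, plus strand): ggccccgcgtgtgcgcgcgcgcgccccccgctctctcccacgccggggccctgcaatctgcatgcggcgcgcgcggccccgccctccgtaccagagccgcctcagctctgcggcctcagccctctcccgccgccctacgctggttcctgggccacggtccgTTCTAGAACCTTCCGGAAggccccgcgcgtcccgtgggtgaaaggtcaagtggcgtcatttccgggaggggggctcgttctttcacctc

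The neighbouring genes Hspa1a and Hspa1b shared 247 of these 250 bases, and the match began at position -104 from the start site in both. Hspe1 shares its upstream region with Hspd1, which is read in the other direction, and the run of capitals there holds 3 overlapping pairs. A pair of units was found in 12 of 30 chaperone genes (40%) and in 14.55% of all 27025 genes with an entry. The 3-unit forms GAANNTTCNNGAA and TTCNNGAANNTTC were found in 3 of the 30, Hspd1, Hspe1 and Dnajb6, against 0.514% of all genes. The other genes with a pair were Dnaja1, Dnajb4, Fkbp4, Cct2 and Cct5. The inducible genes Dnajb1 and Bag3 had an entry but no pair. The genotype difference of the 12 genes with a pair had a median of -0.54 on the log2 scale, with 10 of 12 lower in Card9-/-. That of the 18 without a pair was -0.22, with 14 of 18 lower, where 56.3% of all genes tested were lower. With quantile normalization the medians were -0.0057, with 6 of 12 lower, and 0.083, with 6 of 18 lower, against 50.8% of all genes. A match is a description of the letters, not a measured site, and a link between a pair and the genotype difference was not tested.

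As a group, the chaperone genes lay lower in Card9-/- on the main scale, but not one of them passed the test. A level is the log2 processed signal minus the log2 of the 75th percentile of the array (0 stands for that percentile), and differences are Card9-/- minus wt. Of the 37 genes, 31 were lower and 6 higher, and the median difference was -0.31, against -0.088 for all genes tested, of which 56.3% were lower. No chaperone gene passed an adjusted limma p of 0.05 (the lowest was 0.614), which 0.0269% of all genes did. At least 2-fold lower were 4 of the 37 (Hspb1, Hspa8, Hspa1b and Fkbp4), against 8.02% of all genes. At an unadjusted limma p of 0.05, Hspa8 alone was lower and 0 were higher, against 4.59% of all genes lower and 2.64% higher. Groups did not overlap for 1 gene that was lower, St13, and for 1 that was higher, Dnajb6, against 3.69% and 1.53% of all genes. With 4 arrays a group, 70 assignments are possible, which give an exact two-sided permutation p of at least 0.0286. In simulated data for this comparison 25% of genes with a log2 change of 2 and 84% with one of 4 were recovered over 18605 genes.

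The direction of the group depended on how arrays were scaled. With quantile normalization 16 of 37 genes were lower, with a median of 0.038, and in the authors' deposited matrix 17 of 36 were lower, with a median of 0.016. With scaling to the median 34 were lower (median -0.48), with the 75th percentile of probes bright on all arrays 24 (median -0.066), and with normexp background correction 32 (median -0.42). All genes moved with the scale too: their median was -0.26 with median scaling, 0.15 with the bright probes and -0.010 with quantile normalization. Over these 6 scales 16 chaperone genes were lower on every scale that measured them, 3 were higher on every scale, and 18 changed direction. The 16 were Hsf1, Hspa1a, Hspa1b, Hspa4l, Hspa8, Hsph1, Bag3, Hspb1, Hsp90aa1, Trap1, Stip1, Fkbp4, St13, Tcp1, Cct5 and Cct7, and the 3 were Dnajb2, Dnajb4 and Dnajb6. Relative to all genes, the main, median, bright-probe and normexp scales placed the chaperone median lower, while the quantile scale and the authors' matrix did not. The main, median and bright-probe scales differ from each other only by a constant for each array. Their gap to all genes is therefore the same by construction and counts once. The quantile scale and the authors' matrix are not separate from each other either. The matrix had a median of 4.48 on each array, and most of its differences lay near those with quantile normalization. For Hsf1 these were -0.149 and -0.151.

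**Figure D1:**
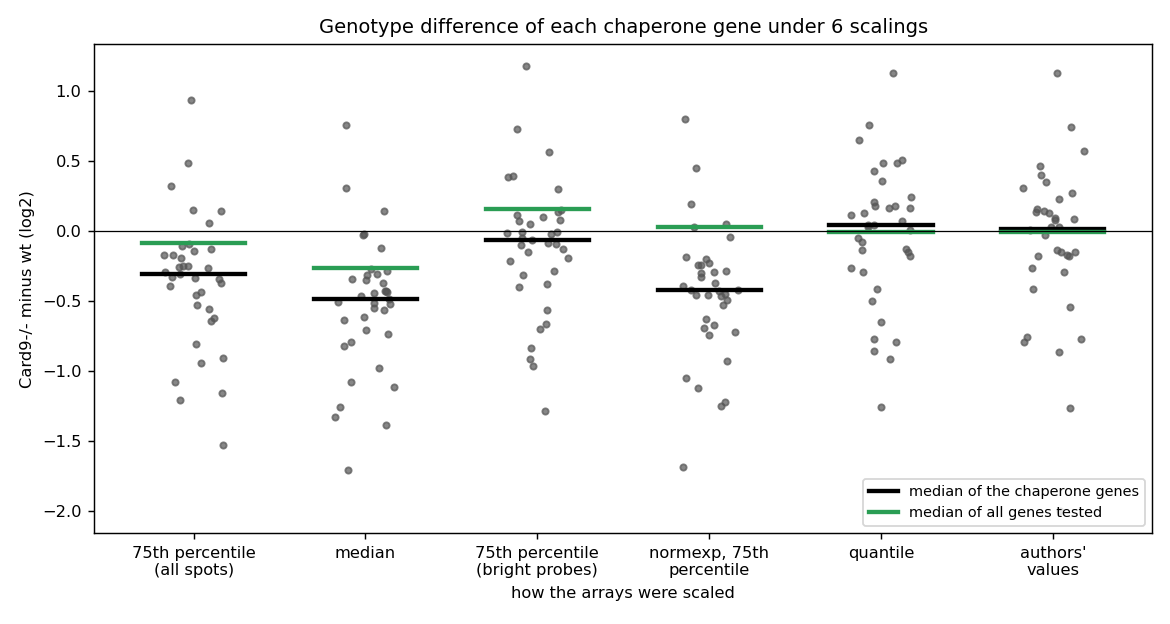
Genotype difference (Card9-/- minus wt, log2) of each chaperone gene, 1 point a gene, under 6 ways of scaling the arrays, with black lines for the median of the chaperone genes and green lines for the median of all genes tested. The black line lies at -0.31 on the main scale, at -0.48 with median scaling and at 0.038 with quantile normalization, where 16 of 37 genes are below 0.

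**Figure D2:**
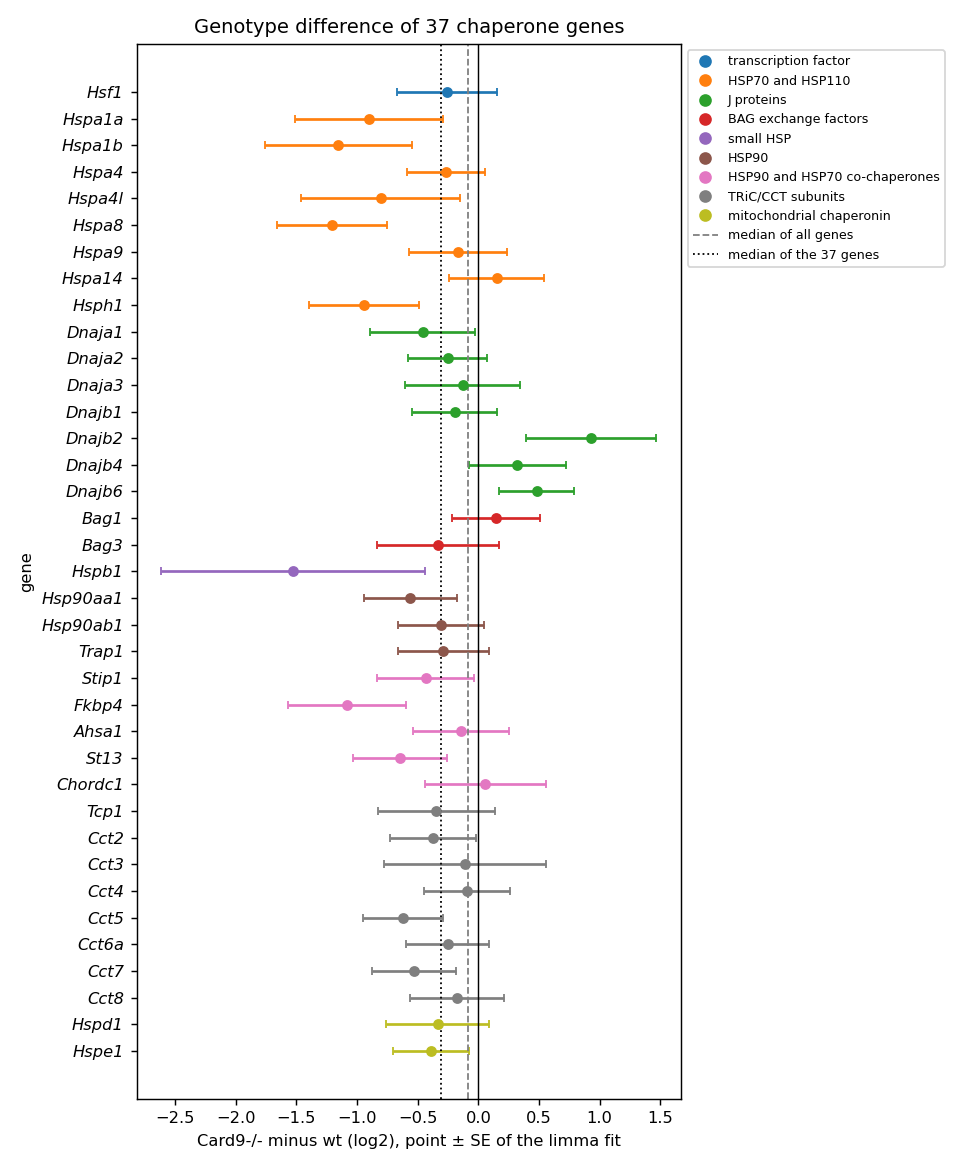
Genotype difference (Card9-/- minus wt, log2) of the 37 genes on the main scale, coloured by role, as points with the standard error of the limma fit; 4 arrays a group. Hspb1 (-1.53), Hspa8 (-1.21), Hspa1b (-1.15) and Fkbp4 (-1.08) lie furthest to the left and Dnajb2 (0.93) furthest to the right, and 18 of the 37 change direction under another scale.

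Hsf1, the factor that drives the heat shock response, differed little between the genotypes. In replicates 1, 2, 3 and 4 its level was 2.70, 2.30, 2.12 and 1.34 for wt and 1.89, 1.78, 2.45 and 1.30 for Card9-/-, and values below keep this order. The lowest array of each group was replicate 4, and the groups overlapped almost fully. The difference was -0.26 (SE 0.41, limma adjusted p = 0.931).

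The HSP70 and HSP110 proteins had the lowest role median among groups of several genes, -0.85, with 7 of 8 lower on the main scale and 5 of 8 with quantile normalization. Hspa8, the constitutive HSP70 that folds new proteins and uncoats clathrin vesicles, was at 6.94, 6.61, 7.18 and 6.28 in wt and at 4.65, 6.33, 5.18 and 6.03 in Card9-/-. Card9-/- replicates 1 and 3, both on slide 2, were the lowest, and Card9-/- replicate 2 lay just above the lowest wt array. The wt mean was 6.75 ± 0.39 (SD, n = 4), and the Card9-/- mean was 5.55 ± 0.77 (SD, n = 4). The difference of -1.21 (SE 0.45), 2.31-fold, had a limma p of 0.0249 before and 0.614 after adjustment over all genes, and an exact permutation p of 0.0571. Within slide 1, which holds a single Card9-/- array, the difference was -0.72.

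Hspa8 was measured by 4 probes along the same transcript, and they did not tell the same story. The probes are shown because they gave different values for the same transcript; their coordinates are on mm9 (plus strand) and no letters are marked.

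Hspa8 probe from base 405 (chr9:40610620-40610679): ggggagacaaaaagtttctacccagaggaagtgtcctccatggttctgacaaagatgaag

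Hspa8 probe from base 950 (chr9:40611362-40611421): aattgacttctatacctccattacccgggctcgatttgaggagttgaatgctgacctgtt

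Hspa8 probe from base 1219 (chr9:40611841-40611900): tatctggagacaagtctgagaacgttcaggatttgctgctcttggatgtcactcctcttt

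Hspa8 probe from base 1812 (chr9:40612755-40613050): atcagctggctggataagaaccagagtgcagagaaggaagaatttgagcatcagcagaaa

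The differences at these 4 probes were -0.61, 0.075, -0.0079 and -1.21, in that order. The probe from base 1812 has the highest mean and so stood for the gene, while both middle probes differed by at most 0.075. The probe from base 950 read 5.49, 5.27, 3.34 and 4.01 in wt and 4.37, 5.41, 5.18 and 3.46 in Card9-/-. There the low arrays were wt replicates 3 and 4 and Card9-/- replicate 4, which are not those that were low at base 1812. The gap between the probes from bases 1812 and 950 on the same array was 1.45, 1.34, 3.84 and 2.26 in wt and 0.28, 0.93, -0.01 and 2.58 in Card9-/- (difference of the gap -1.28, exact permutation p = 0.171). With the mean of the 4 probes the Hspa8 difference was -0.44, and with the probe nearest the transcript start -0.61, with limma p of 0.340 and 0.252 before adjustment. A measure of the gap between 3' and 5' probes over 2166 other transcripts, centred over arrays, was -0.30, -0.12, 0.30 and 0.26 in wt and 0.22, 0.06, -0.08 and -0.30 in Card9-/-. With this measure as a covariate the difference at base 1812 was -1.25.

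**Figure D3:**
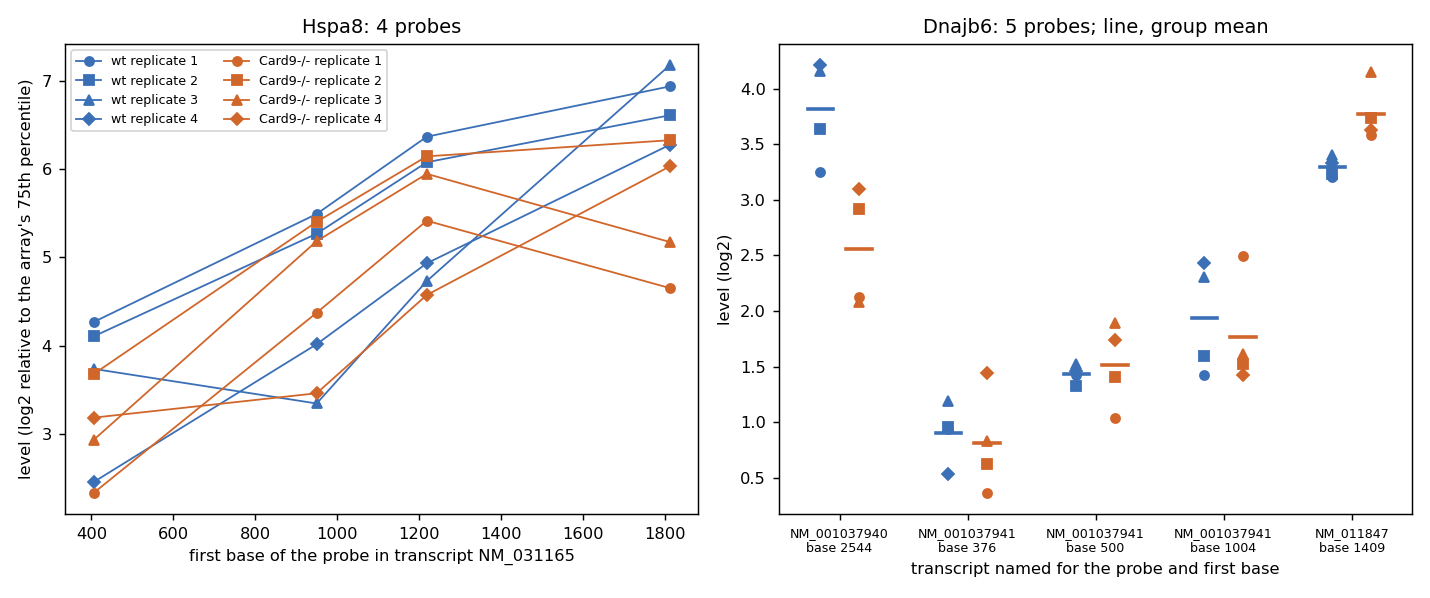
Left, level (log2 relative to the array's 75th percentile) of Hspa8 at 4 probes against the probe's first base in the transcript, 1 line an array; right, level of Dnajb6 at 5 probes named by transcript and first base, with lines for group means. For Hspa8 the Card9-/- arrays of replicates 1 and 3 drop at the last probe, and for Dnajb6 the outermost 2 probes separate the genotypes in opposite directions.

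The inducible pair Hspa1a and Hspa1b varied most among the Card9-/- arrays. Hspa1a was at 4.53, 4.16, 5.31 and 4.23 in wt and at 5.18, 2.36, 4.05 and 3.03 in Card9-/-. Hspa1b was at 3.33, 3.25, 4.08 and 2.65 in wt and at 3.81, 0.98, 2.11 and 1.80 in Card9-/-. In both genes Card9-/- replicate 1 was the highest array of its group and lay among the wt arrays, replicate 2 was the lowest, and the groups overlapped. The differences were -0.90 (SE 0.61, limma adjusted p = 0.818) for Hspa1a and -1.15 (SE 0.60, limma adjusted p = 0.749) for Hspa1b. These genes are near-identical copies in their coding part, while their probes matched each other in at most 21 of 52 bases without gaps; whether either probe reads both RNAs was not tested.

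Hsph1, the HSP110 protein that exchanges nucleotide on HSP70, was lower at each of its 3 probes, of which 1 was dim on most arrays. At the brightest it was at 3.32, 3.38, 3.19 and 2.09 in wt and at 2.43, 1.83, 2.68 and 1.28 in Card9-/-. Replicate 4 was the lowest array of both genotypes, and only wt replicate 4 fell within the Card9-/- range. The difference was -0.94 (SE 0.45, limma adjusted p = 0.718), and -1.23 and -1.68 at the other probes, the latter well above background on 3 of 8 arrays. A kept probe had to be well above background on 3 or more arrays of a group, so these 3 share a genotype. The difference at that dim probe is therefore tied to the filter and adds no separate support. With arrays weighted by quality and the weights fitted by REML, an alternative chosen after seeing the data whose fit stopped before full convergence, Hsph1 was lower by 1.20 with an adjusted limma p of 0.0414. With the default weights the adjusted limma p was 0.0522. By REML 1171 of the 18605 genes tested passed. Those weights were highest for the similar wt replicates 2 and 1, at 10.1 and 2.79, and lowest for wt replicate 3, at 0.177. Over all alternatives the Hsph1 difference ranged from -1.71 to -0.68. Among the rest of this group Hspa4, Hspa4l and Hspa9 were lower by 0.17 to 0.80 on the main scale, and Hspa14 was at 0.15.

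**Figure D4:**
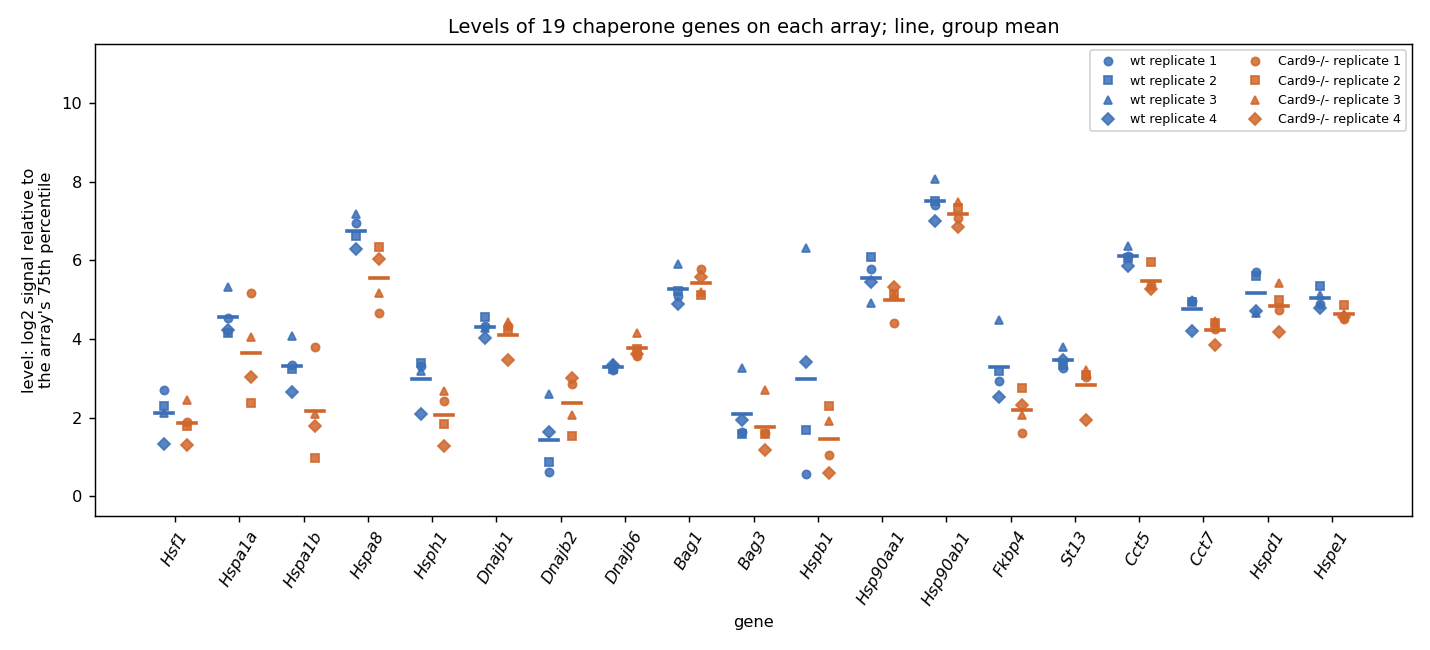
Level (log2 signal relative to the array's 75th percentile) of 19 chaperone genes on each array, with symbols for replicates, blue for wt, orange for Card9-/- and lines for group means. On this scale the groups overlap for all genes shown except St13, where Card9-/- is lower, and Dnajb6, where it is higher; levels of different genes come from different probes and are not comparable with each other.

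The J proteins, which start the HSP70 cycle, were split: 4 of 7 were lower on the main scale, with a median of -0.13, and 0 of 7 with quantile normalization. Dnajb1, the main cytosolic partner of inducible HSP70, was at 4.33, 4.57, 4.29 and 4.03 in wt and at 4.34, 4.20, 4.44 and 3.46 in Card9-/-. Only Card9-/- replicate 4 stood below the wt range, and without it the difference of -0.19 (SE 0.35, limma adjusted p = 0.942) became 0.024. Dnajb2, which also binds ubiquitin, was at 0.62, 0.88, 2.61 and 1.64 in wt and at 2.85, 1.54, 2.07 and 3.02 in Card9-/-. Card9-/- replicates 1 and 4 were the highest of all arrays, and wt replicates 1 and 2 the lowest. Its difference of 0.93 (SE 0.54, limma adjusted p = 0.776) was above 0 in all 25 alternatives, from 0.66 to 1.58.

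Dnajb6, a J protein that keeps aggregation-prone proteins soluble, had probes that separated the genotypes in opposite directions. At its brightest probe, named for the transcript NM_011847 (chr5:30093406-30093465, mm9), it was at 3.21, 3.24, 3.40 and 3.33 in wt and at 3.58, 3.74, 4.15 and 3.63 in Card9-/-. Every Card9-/- array lay above every wt array, with a difference of 0.48 (SE 0.31, limma adjusted p = 0.805, exact permutation p = 0.0286, the smallest possible). The groups overlapped with median scaling. At the probe named for another transcript, NM_001037940 (chr5:30112855-30112911, mm9), it was at 3.25, 3.64, 4.16 and 4.21 in wt and at 2.12, 2.92, 2.08 and 3.09 in Card9-/-. There every Card9-/- array lay below every wt array, as at 3.36% of all probes, with a difference of -1.26 (SE 0.41, limma p of 0.0114 before and 0.607 after adjustment over all probes). The gap between the first and the second of these probes, which does not depend on a constant scale factor for an array, was -0.05, -0.40, -0.76 and -0.88 in wt and 1.46, 0.82, 2.07 and 0.54 in Card9-/-. It was below 0 in all wt arrays and above 0 in all Card9-/- arrays, and differed by 1.74. This pair of probes was singled out after its values were seen, because each separated the groups, so the gap had to separate them too and is given without a test. Of 6169 genes with more than 1 probe kept, 3 had probes that separated the groups in opposite directions (0.0486%), and Dnajb6 was the only chaperone gene among them. The other 3 Dnajb6 probes differed by -0.17 to 0.086, and with the mean of all 5 the gene was at -0.19.

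Of the BAG exchange factors, which release substrates from HSP70, 1 was lower and 1 higher. Bag3, which links HSP70 to autophagy, was at 1.63, 1.58, 3.26 and 1.93 in wt and at 1.61, 1.59, 2.70 and 1.18 in Card9-/-. Replicate 3 was the highest array of each genotype, and the difference of -0.33 (SE 0.50, limma adjusted p = 0.927) became 0.055 without wt replicate 3. Bag1 was at 5.08, 5.22, 5.90 and 4.89 in wt and at 5.79, 5.12, 5.18 and 5.58 in Card9-/-, with a difference of 0.14 (SE 0.36, limma adjusted p = 0.964). The ranges of Bag1 overlapped almost fully, and its difference was -0.031 with median scaling.

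Hspb1, the small heat shock protein HSP27, had the lowest difference of the 37 genes and the widest spread. It was at 0.56, 1.69, 6.31 and 3.41 in wt and at 1.05, 2.29, 1.92 and 0.60 in Card9-/-. The wt arrays of replicates 3 and 4 stood above all others, and wt replicate 1 was the lowest array of all. The difference of -1.53 (SE 1.09, limma adjusted p = 0.827) became -0.42 without wt replicate 3 and was 0.38 with the default array weights, which gave that array a weight of 0.187. The macrophage marker median was also highest in wt replicates 3 and 4 and lowest in wt replicates 1 and 2, and its part in the Hspb1 level was not tested.

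**Figure D5:**
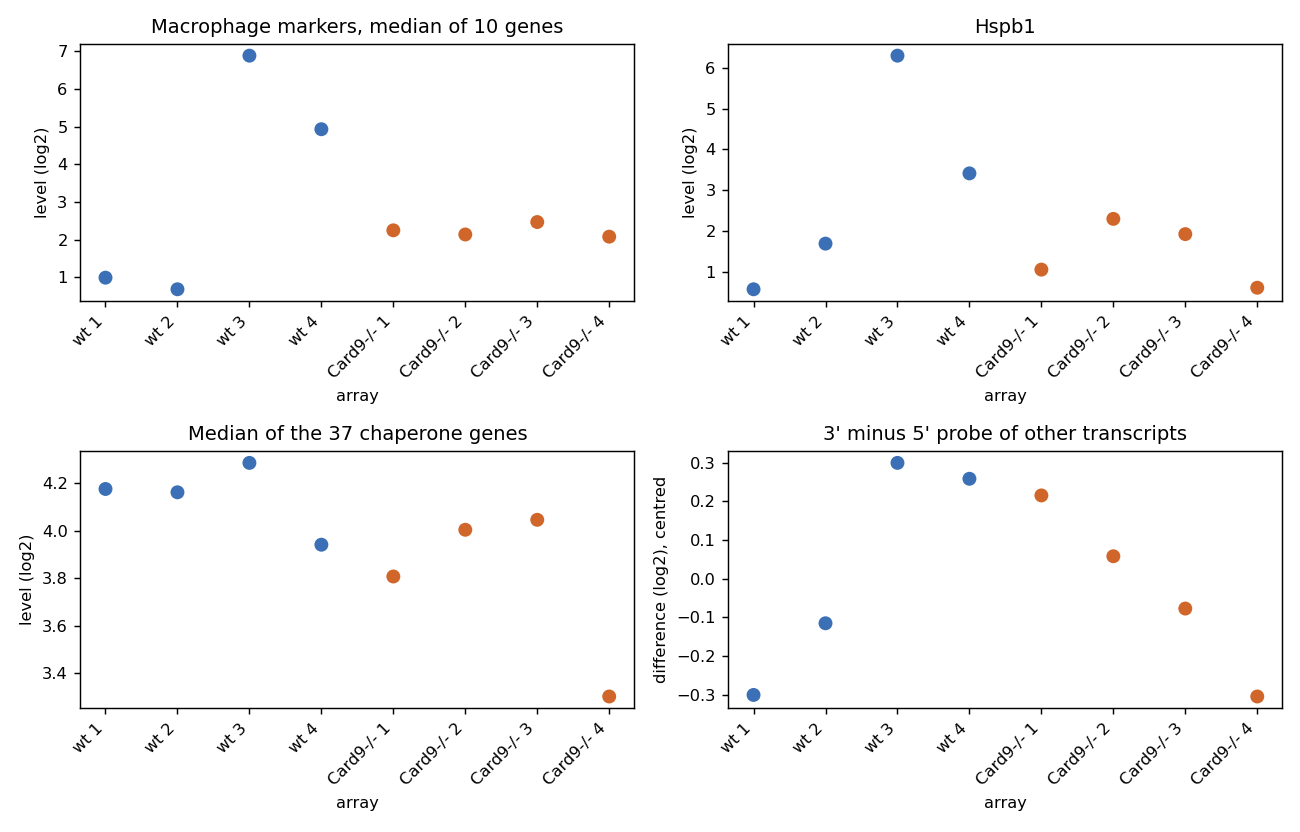
Median level of 10 macrophage markers, level of Hspb1, median level of the 37 chaperone genes (all log2 relative to the array's 75th percentile) and the centred gap between 3' and 5' probes of 2166 other transcripts, each by array, in blue for wt and orange for Card9-/-. Hspb1 and the macrophage markers are highest in wt replicates 3 and 4 (6.31 and 3.41 for Hspb1), while the chaperone median is lowest in Card9-/- replicate 4 (3.30).

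The 3 HSP90 proteins were lower on the main scale, with a median of -0.31, and 2 of 3 with quantile normalization. Hsp90aa1, the inducible cytosolic form, was at 5.78, 6.07, 4.93 and 5.44 in wt and at 4.41, 5.15, 5.10 and 5.32 in Card9-/-. Card9-/- replicate 1 was the lowest array, and wt replicate 3 lay inside the Card9-/- range. The difference was -0.56 (SE 0.39, limma adjusted p = 0.827), and -0.19 at its other kept probe. Hsp90ab1, the constitutive form, was at 7.41, 7.50, 8.06 and 7.01 in wt and at 7.07, 7.33, 7.48 and 6.86 in Card9-/-, and its difference of -0.31 (SE 0.36, limma adjusted p = 0.895) was 0.24 with quantile normalization.

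Among the co-chaperones 4 of 5 were lower, with a median of -0.44, and 3 of 5 with quantile normalization. Fkbp4, the immunophilin FKBP52 that carries steroid receptors with HSP90, was at 2.94, 3.17, 4.48 and 2.51 in wt and at 1.62, 2.76, 2.08 and 2.32 in Card9-/-. Only Card9-/- replicate 2 lay above the lowest wt array. The difference was -1.08 (SE 0.48, limma p of 0.0517 before and 0.692 after adjustment; exact permutation p = 0.0571), but -0.44 with the mean of its 3 probes and -0.075 at the probe nearest the transcript start. St13, the HSP70-interacting protein HIP, was at 3.27, 3.34, 3.81 and 3.46 in wt and at 3.04, 3.09, 3.22 and 1.94 in Card9-/-. Its groups did not overlap, by a small margin in 3 Card9-/- arrays and by a wide one in replicate 4. They overlapped with median scaling, bright-probe scaling, quantile normalization and in the authors' matrix. The difference was -0.64 (SE 0.39, limma adjusted p = 0.786; exact permutation p = 0.0286).

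All 8 TRiC subunits were lower on the main scale, with differences of -0.62 to -0.093 and a median of -0.30, but 3 of 8 with quantile normalization. Cct5 was at 6.12, 6.07, 6.37 and 5.86 in wt and at 5.36, 5.96, 5.34 and 5.27 in Card9-/-. All but Card9-/- replicate 2 lay below the wt range, and the difference was -0.62 (SE 0.33, limma adjusted p = 0.753). The exact permutation p was 0.0571 at this probe, from base 1705, and 0.657 at the other kept Cct5 probe, from base 1200. Cct7 was at 4.96, 4.93, 5.00 and 4.19 in wt and at 4.26, 4.40, 4.45 and 3.84 in Card9-/-, with a difference of -0.53 (SE 0.35, limma adjusted p = 0.811). Its overlap came from wt replicate 4 alone. Cct5, Cct7 and Tcp1 kept their direction on all 6 scales, and Cct2, Cct3, Cct4, Cct6a and Cct8 did not. At the probes used, Cct3 spanned 1.15 to 4.08 in wt and Cct4 spanned 5.76 to 5.88. That contrast depended on the probe: the Cct4 probe from base 680 read 1.94, 1.57, -0.009 and 1.17 in wt, with replicate 3 the lowest, as it was for Cct3.

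The mitochondrial chaperonin genes were lower by similar amounts at the probes that stood for them, and their other probes gave other values. Hspd1 (HSP60) was at 5.69, 5.60, 4.67 and 4.71 in wt and at 4.74, 4.99, 5.43 and 4.17 in Card9-/-. The wt arrays fell into a high and a low pair; all Card9-/- arrays lay below the high pair, and their range covered the low one. Its cofactor Hspe1 (HSP10) was at 4.88, 5.34, 5.12 and 4.79 in wt and at 4.52, 4.87, 4.63 and 4.56 in Card9-/-. Only Card9-/- replicate 2 reached into the wt range. The differences were -0.34 (SE 0.42, limma adjusted p = 0.905) for Hspd1 and -0.39 (SE 0.31, limma adjusted p = 0.851) for Hspe1, and were 0.16 and 0.038 with quantile normalization. At the other kept Hspd1 probe, from base 1693, the groups overlapped with an exact permutation p of 0.971. They also overlapped at the Hspe1 probe from base 286, with an exact permutation p of 0.114. A dimmer Hspe1 probe, from base 493, differed by -2.07 (SE 0.71, limma p of 0.0162 before and 0.622 after adjustment over probes). This probe stood for Hspe1 in the authors' matrix, where the difference was -1.997 (limma p of 0.0168 before and 0.612 after adjustment). The probe used here, from base 632, exceeded it by 5.46, 5.02, 4.42 and 4.66 in wt and by 8.07, 5.74, 7.54 and 4.90 in Card9-/-. The gap was widest on Card9-/- replicates 1 and 3, both on slide 2.

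Probes of the same gene were compared over the list because the choice of probe decided several values. Of 87 probes for the 37 genes 82 were kept, 60 of these were lower and 22 higher, and 54% of all 28169 probes kept were lower. At an unadjusted limma p of 0.05, 5 were lower and 2 higher, against 4.21% and 2.69% of all probes, and 0 passed after adjustment, which 0.0391% of all probes did. Of the 22 genes with more than 1 kept probe, 12 were lower at every probe, 3 higher at every probe and 7 mixed. Over all genes with more than 1 kept probe 44.8% were mixed. For Hspa14, an HSP70 relative bound to ribosomes, all 5 kept probes were higher. The clearest, named for NR_103465 and starting at base 4288, was at -0.98, -0.59, -0.79 and -0.86 in wt and at -0.05, 0.32, 0.82 and 0.02 in Card9-/-. Every Card9-/- array was higher there, as at 1.74% of all probes, with a difference of 1.08 (SE 0.34, limma p of 0.0107 before and 0.607 after adjustment over probes), against 0.15 at the probe that stood for the gene.

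The arrays differed in how the chaperone genes sat on them. The median level of the 37 genes was 4.18, 4.16, 4.29 and 3.94 in wt and 3.81, 4.00, 4.05 and 3.30 in Card9-/-. Card9-/- replicate 4 gave the lowest level of 18 of the 37 genes, and wt replicates 3 and 2 the highest of 14 and 10. Without Card9-/- replicate 4 the median difference was -0.15, with 25 genes lower, and within slide 1, where that array is the only one of its genotype, it was -0.83. The same array had the highest median of 4 red cell markers, 10.3, against 2.12 to 8.32 on the others; the part of these in the chaperone values was not tested. The SD over the 37 genes of the difference between wt replicates 1 and 2 was 0.285, against 0.791 to 1.40 for other wt pairs and 0.592 to 0.948 for Card9-/- pairs. Averaging these similar arrays left 0 chaperone genes passing after adjustment.

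Other genes of the chaperone network, from a list of 62 of which 52 were tested, were also mostly lower on the main scale. Of these 36 were lower and 16 higher, with a median of -0.19 on the main scale, and 27 were lower with quantile normalization, with a median of -0.018. None of the 52 passed an adjusted limma p of 0.05, and 3 were lower and 0 higher at an unadjusted p of 0.05, a share near the 4.59% of all genes. These 3 were Ppp5c, a phosphatase bound to HSP90 (-1.58, SE 0.44), Hspa13, an HSP70 of the endoplasmic reticulum (-0.94, SE 0.37), and the prefoldin subunit Pfdn4 (-1.15, SE 0.48), with adjusted limma p of 0.532, 0.621 and 0.657. In the other subgroups the genes with the smallest p were Grpel2 (-0.72), Cryab (2.22), Hsf2 (-0.73), Dnajc21 (0.40) and Bag5 (-0.38).

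Other protein quality systems also had most of their genes lower in Card9-/- on the main scale, though fewer with quantile normalization. Of 18 genes for folding in the endoplasmic reticulum, 17 were lower on the main scale (median -0.65) and 13 with quantile normalization (median -0.35). Of 34 proteasome genes, 32 were lower (median -0.33) and 21 with quantile normalization (median -0.071). None of either list passed an adjusted limma p of 0.05, and 1 and 2 genes were lower at an unadjusted p of 0.05, against 4.59% of all genes. Groups did not overlap for 1 of the 18 and 5 of the 34, all lower in Card9-/-, against 3.69% of all genes. Hspa5, the HSP70 of the endoplasmic reticulum known as BiP, was at 6.57, 6.80, 7.63 and 7.18 in wt and at 5.67, 6.43, 6.62 and 6.07 in Card9-/- (difference -0.85, SE 0.38, limma adjusted p = 0.696). Its groups overlapped only through Card9-/- replicate 3. No test of a difference between these lists and the 37 genes was made.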

How the data were processed

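Intensity values of single spots are in the deposited scanner files; per the file headers they are background-subtracted output of the scanner software, Agilent Feature Extraction 10.7.1.1. The series matrix holds the authors' deposited log2 values; its 49670 rows that line up with their probe identifiers were an alternative, 7075 rows that carry the next probe's values were not used, and replicate numbers differ between the sources. Without control spots 59305 spots remained, outlier-marked spots were set to missing, log2 signals were taken relative to the array's 75th percentile, and a probe was kept if 3 or more of the 4 arrays of a group had it well above background. Each gene was represented by its probe of highest mean. The genotype term was fitted by limma (version 3.58.1, R version 4.3.3), two-sided and without covariates, at 0.05 after Benjamini-Hochberg adjustment across 18605 genes or 28169 probes; the fit was first tested on simulated data. Exact permutation tests used all 70 assignments. Gene names came from accessions or symbols through RefSeq's GRCm38.p6 table; probe coordinates are mm9, as in the files.

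Values in every array are given for Hsf1, 8 heat shock genes (Hspa1a, Hspa1b, Hspa8, Hsp90aa1, Hsph1, Hspb1, Dnajb1 and Bag3) and the 2 genes of each role with the smallest unadjusted p; of each other chaperone subgroup the gene with the smallest p is named with its difference. Other probes and genes named were chosen after their values were seen. The members and lists were chosen with earlier results of these data known, so they are described by counts and medians. There were 25 alternatives, 22 planned and 3 added after seeing the data: the gap between 3' and 5' probes as a covariate, the probe nearest the transcript start, and array weights by REML. The last was added because the default weights depend on the order of the genes. The number of arrays limits the precision.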

Additional observations from a re-analysis of the deposited data

Results flagged for a closer look

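In 6 of 74 groups of 4 arrays (37 genes, both genotypes) 1 array lay far from the other 3, by Dixon's criterion (gap over range above 0.829), which chance alone gives in about 1 in 20 groups. Hsph1 was at 2.09 in wt replicate 4, with the nearest array at 3.19, and Cct7 was at 4.19 in the same array, with the nearest at 4.93. Card9-/- replicate 4 was the low array for St13, at 1.94 against 3.04, and for Cct4, at 4.98 against 5.91. Cct4 was also high in wt replicate 3, at 5.88 against 5.78, where the other wt arrays were very close together. Cct5 was high in Card9-/- replicate 2, at 5.96 against 5.36.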

How the results depend on the processing

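No chaperone gene passed an adjusted p of 0.05 in 24 of 25 alternatives; with array weights by REML 1 did, Hsph1. The genes passing over the whole table numbered 5 in the main analysis. They numbered 0 with only probes well above background on all arrays or with slide as a fixed block, and 540 with the default array weights. With weights by REML 1171 of all 18605 genes passed, beside 2 of the 52 other chaperone genes. The weights ranged from 0.187 to 7.65 by default and from 0.177 to 10.1 by REML, highest for the similar wt replicates 1 and 2 and lowest for wt replicate 3. The REML fit stopped before full convergence.

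Beside each count of chaperone genes the share of all genes tested stands in parentheses. Lower at an unadjusted p of 0.05 were 1 in the main analysis (4.59%), 2 with median scaling (6.42%), only probes well above background on all arrays (5.02%), the mean of a gene's probes (4.56%) or slide as a fixed block (2.11%), 3 without a filter on dim probes (3.06%), 5 with normexp (5.47%), 7 with default weights (15.9%) and 8 with weights by REML (17.2%). There were 0 with the 75th percentile of bright probes (2.19%), quantile normalization (4.13%) or the probe nearest the transcript start (4.32%), and from 0 without wt replicate 3 (4.25%) to 3 without wt replicate 4 (3.59%) leaving out 1 array. Lower without overlap were 1 in the main analysis (3.69%), 4 with median scaling (5.98%), 2 with the mean of probes (3.47%), 25 within slide 1 with its 1 Card9-/- array (30.0%), and 0 with bright probes (1.52%), quantile normalization (2.73%) or the authors' matrix (2.55%). Leaving out 1 array gave from 1 to 7: 7 without wt replicate 4 (6.16%), 6 and 4 without Card9-/- replicates 2 (6.60%) and 1 (5.29%), and 2 without wt replicate 3 (5.71%). The count of lower genes was 16 with quantile normalization and 17 in the authors' matrix. The median was 0.038 and 0.016 there, and -0.83 within slide 1 and with slide as a fixed block. Leaving out 1 array gave medians from -0.41 to -0.15.

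With replicate numbers as a block (replicate block), 3 genes and 0 chaperone genes passed, 0 were lower at an unadjusted p of 0.05, and the median stayed at -0.31. The deviations of same-numbered arrays had correlations of -0.13, 0.25, -0.12 and -0.28, against -0.28 to 0.19 for arrays of different number. The labels name no pairing, and so few arrays cannot settle whether the numbers pair samples.

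Of 474 values of 19 named genes, 17 changed sign. Dnajb1 was at 0.048 with bright probes, 0.16 with quantile normalization and 0.13 in the authors' matrix, and from -0.30 to 0.024 (without Card9-/- replicate 4) leaving out 1 array. With quantile normalization Hsp90ab1 was at 0.24, Hspd1 at 0.16 and Hspe1 at 0.038, and in the matrix Hsp90ab1 was at 0.23 and Hspd1 at 0.080. Bag1 was at -0.031 with median scaling, and Dnajb6 at -0.19 with the mean of probes and -0.090 with the probe nearest the start. With default weights and by REML, Hspb1 was at 0.38 and 0.33 and Bag3 at 0.25 and 0.27; leaving out 1 array moved Bag3 from -0.64 to 0.055 (without wt replicate 3). The cause was not tested.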
